A study of Mus musculus with 2 samples.

Results

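Interferon-stimulated genes are the genes that cells switch on when they meet an interferon, and 40 of them were examined here for accessible chromatin in activated regulatory T cells. The rule names the genes and sets no threshold on a measured value, but the list was drawn up with earlier results of these data known. Each gene was looked up in the GENCODE M21 annotation. All 40 were found among the annotated genes, 38 of them as protein-coding genes of 21938 in all, while Oas1b and Mx2 are annotated as polymorphic pseudogenes. The cells were regulatory T cells, labelled as activated, from male mice aged 4 months that carry the Foxp3CreERT2 and Rosa26YFP alleles, and every value below belongs to cells with both alleles. Foxp3CreERT2 places an inducible Cre recombinase under the control of Foxp3, the master factor of regulatory T cells, and Rosa26YFP is a reporter. The labels give a bone marrow hematopoietic cell as the origin of the primary cells, and the means of activation, not given in the sources used here, cannot be stated. The assay was ATAC-seq, in which a transposase inserts adapters into open DNA. Its 2 libraries carry the numbers 1 and 2 as technical replicates and share 1 biological replicate number and 1 donor. Each peak list covers them jointly, so no value has an error between animals. No control or interferon-treated group was used here, and the comparisons set the interferon-stimulated genes against other genes of the same cells.

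Type I interferons signal through the kinases Jak1 and Tyk2 to a complex that includes STAT2 and IRF9, which binds the interferon-stimulated response element (ISRE), a pair of GAAA repeats. Interferon gamma signals through Jak1 and Jak2 to factors that bind the GAS element. The genes that carry these elements encode RNA sensors, enzymes that degrade or edit viral RNA, GTPases that attack membranes around intracellular parasites, and the ISG15 ubiquitin-like system. T cells carry receptors for both kinds of interferon.

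The promoters below show the motif on which the sequence results turn, in the gene with the strongest promoter region, in a gene with a weak region and 3 overlapping matches, and in a gene with no region at all. They are RefSeq promoters of GRCm38.p6, the assembly of mm10, from 250 bases before to 50 after the annotated start, read 5′ to 3′ on the strand of the gene. Capitals mark matches to the ISRE, searched as GAAA, any 2 bases and GAAA again on either strand, so that a match on the other strand reads TTTC, 2 bases and TTTC.
Ifit1, chr19:34640639-34640938, plus strand: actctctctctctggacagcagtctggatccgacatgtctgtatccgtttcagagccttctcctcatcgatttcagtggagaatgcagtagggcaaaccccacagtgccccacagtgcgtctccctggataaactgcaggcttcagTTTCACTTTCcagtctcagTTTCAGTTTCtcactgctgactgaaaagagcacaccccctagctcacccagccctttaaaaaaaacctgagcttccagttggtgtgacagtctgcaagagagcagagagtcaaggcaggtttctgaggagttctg
Isg15, chr4:156200769-156201068, minus strand: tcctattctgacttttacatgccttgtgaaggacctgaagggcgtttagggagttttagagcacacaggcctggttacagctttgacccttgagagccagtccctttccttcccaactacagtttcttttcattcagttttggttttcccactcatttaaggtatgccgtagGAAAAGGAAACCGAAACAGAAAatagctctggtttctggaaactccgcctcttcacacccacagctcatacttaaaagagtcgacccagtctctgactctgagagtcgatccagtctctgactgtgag
Oas1a, chr5:120907476-120907775, minus strand: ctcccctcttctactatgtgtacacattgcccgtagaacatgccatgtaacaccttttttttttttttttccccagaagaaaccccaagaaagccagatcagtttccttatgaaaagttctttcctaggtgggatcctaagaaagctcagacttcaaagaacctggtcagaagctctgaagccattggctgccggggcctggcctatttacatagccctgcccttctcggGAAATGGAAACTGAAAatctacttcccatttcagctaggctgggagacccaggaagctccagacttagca

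The shorter stretches are 30-base sites around ISRE matches of other genes, each written on the strand that reads GAAA, with the matches in capitals. They show the bases around the match in genes of different families, and the match itself is fixed by the search.
Ifit3, chr19:34583363-34583392, minus strand: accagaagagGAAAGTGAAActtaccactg
Rsad2, chr12:26456553-26456582, plus strand: tctgttttctGAAAATGAAAgttggaccag
Bst2, chr8:71537580-71537609, minus strand: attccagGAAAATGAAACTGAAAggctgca
Ifi203, chr1:173942508-173942537, minus strand: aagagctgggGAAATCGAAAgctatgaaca
Ddx58, chr4:40239804-40239833, plus strand: ctggccatagGAAATCGAAActgcctcagg
Irgm1, chr11:48871428-48871457, minus strand: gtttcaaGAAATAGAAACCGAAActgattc
Igtp, chr11:58199512-58199541, plus strand: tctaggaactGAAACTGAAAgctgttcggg
Irgm2, chr11:58214903-58214932, plus strand: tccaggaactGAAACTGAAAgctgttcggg
Gbp2, chr3:142620594-142620623, minus strand: ttaagacagtGAAAGTGAAActaaaagagt
Gbp5, chr3:142496759-142496788, minus strand: tctctaaactGAAATTGAAActacacaagt
Gbp7, chr3:142530273-142530302, minus strand: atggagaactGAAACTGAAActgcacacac
Gbp3, chr3:142559992-142560021, minus strand: gatctggGAAATAGAAACTGAAActgtgtc
Oas3, chr5:120777715-120777744, minus strand: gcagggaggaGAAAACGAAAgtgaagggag

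Of the 40 members, 28 matched the RefSeq promoter table by symbol, and Oas1b, Oas2, Mx1, Mx2, Gbp4, Dhx58, Zbp1, Ifi204, Usp18, Parp9, Parp14 and Ifi27l2a did not. Of the 28, 17 (60.7%) held an ISRE within those 300 bases, against 1062 of 26997 other symbols (3.93%). The sites of Igtp and Irgm2 resemble each other closely. The blastn search took 500 bp either side of TSSs at 58199556 for Igtp and 58199618 for Irgm2, so the windows largely overlap. Each aligned to a copy elsewhere on chromosome 11 over 704 bp at 96.0% identity. The start beside the printed Irgm2 site was not searched separately.

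Interferon-stimulated genes were for the most part accessible at their promoters in these cells. A promoter region, meaning an accessible region within 1000 bp of any transcription start site (TSS) of the gene, was present at 35 of the 40 genes in the list past the irreproducible discovery rate (IDR) threshold. Over all protein-coding genes the share was 49.1%. Among the 38 protein-coding members it was 33 (86.8%, Wilson 95% interval 72.7 to 94.3, counting error only), against 50.2% of other genes matched on territory, the stretch of DNA in which a gene's TSS is the nearest. That interval treats the genes as independent, although some share a region, as Dtx3l and Parp9 do. The 5 genes without a promoter region were Oas1a, Oas2, Oas3, Ifi204 and Ifi44. In the more permissive pseudoreplicated list 38 of 40 had one, where the share over all protein-coding genes was 55.7%, and Oas1a and Oas2 had none in either list. Because both comparisons are descriptions over genes of 1 pooled sample, no test was made.

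The size of each peak was given by the authors' signal value, the enrichment written by the peak caller. Over the 35 genes the strongest promoter region had a median signal of 14.4, with a range of 6.40 to 25.8. The median over 10741 other genes with a promoter region was 16.6 (quartiles 12.7 and 20.5). Only 10 of the 35 members exceeded that median and 5 exceeded the upper quartile. Members' regions were also narrower, with a median width of 737 bp against 876 bp, and both groups had a median of 2 summits. So the promoters of these genes were accessible more often than those of other genes, while their signal, where present, was lower at the median. A lower signal in a pool can come from fewer open cells or from less opening per cell, which cannot be told apart here.

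**Figure D1:**
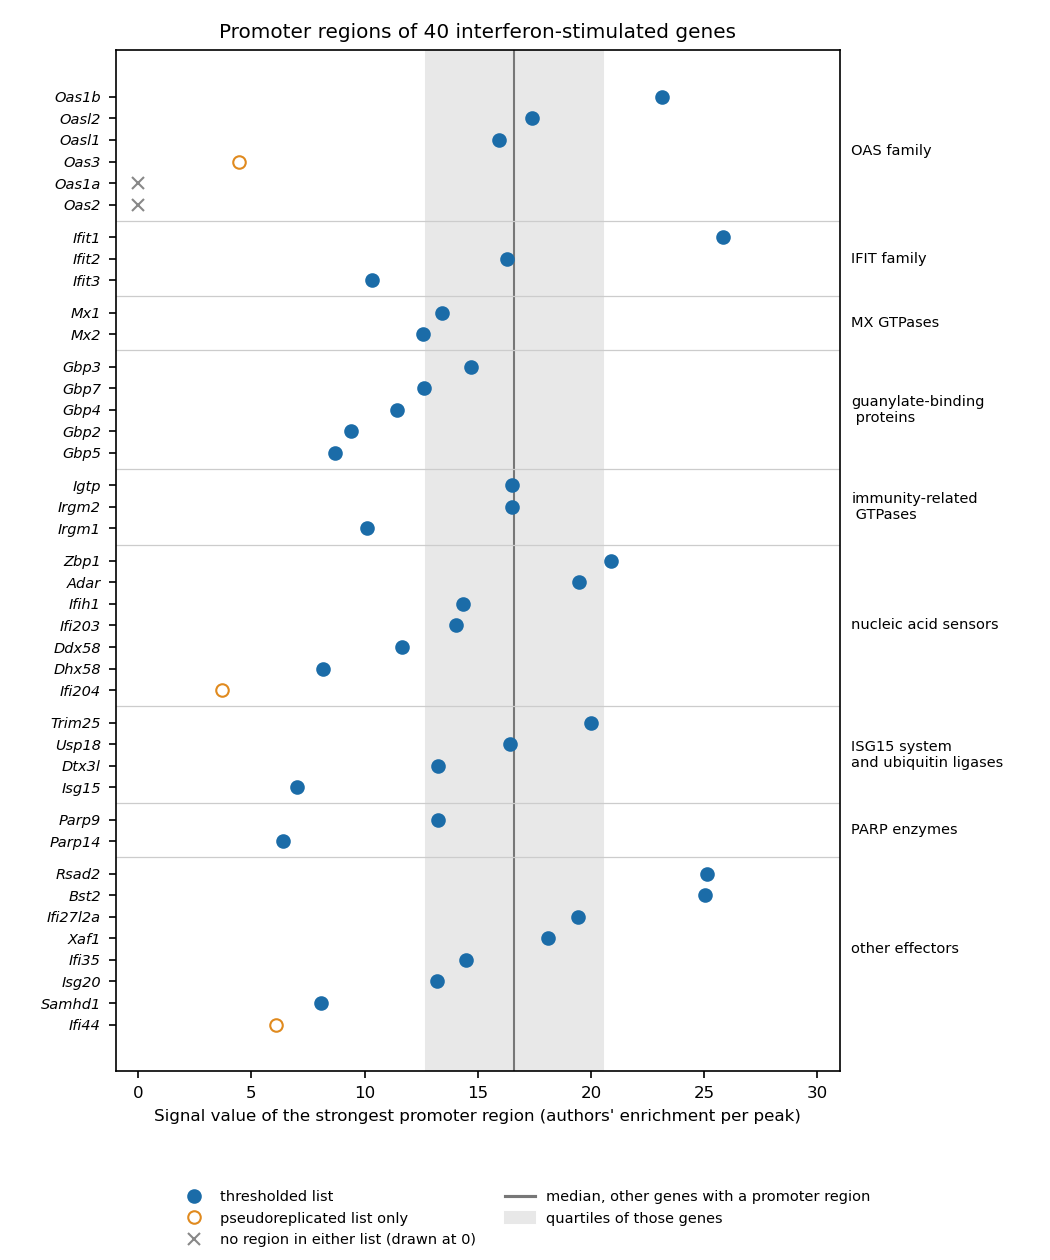
Signal value of the strongest promoter region of each of the 40 genes, grouped by family and sorted within it, with filled points for the thresholded list, open points for genes found in the pseudoreplicated list only and crosses at 0 for genes with no region in either. The grey line and band mark the median of 16.6 and the quartiles of other genes with a promoter region, and most members lie left of the line, with Ifit1, Rsad2 and Bst2 farthest to the right.

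The strongest promoter regions belonged to Ifit1, Rsad2, Bst2, Oas1b and Zbp1. Ifit1, which binds viral RNA that lacks the host's cap methylation, had the strongest region of the 40, at 34640498 to 34641105 of chromosome 19, with a signal of 25.8 and a deposited −log10 p of 252. Rsad2, which encodes viperin, an enzyme that makes a chain-terminating nucleotide, followed with 25.1 (chromosome 12, 26456073 to 26456809). Bst2, which encodes tetherin and holds budding virus at the cell surface, had 25.03 (chromosome 8, 71537103 to 71537759). Oas1b had 23.1, and Zbp1, a sensor of Z-form nucleic acid, had 20.9. These were the 5 members with a signal above 20. At the other end, Parp14 had 6.40, Isg15 7.01, Samhd1 8.07 and Dhx58 8.16. Isg15 encodes the ubiquitin-like protein that gives the system its name, and its region was 277 bp wide, the narrowest of the strongest regions (chromosome 4, 156200704 to 156200980).

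The ranked list gives each peak's −log10 p in the 2 inputs that the IDR compared, and their origin, not given in the sources used here, cannot be tied to the libraries. At Ifit1 the values were 124 and 129, at Rsad2 135 and 133, at Bst2 101 and 94.9, and at Isg15 29.8 and 20.2. All 35 members had values within 2-fold of each other. The IDR of the strongest promoter peak had a median of 0.00155 over the 35 genes and was highest at Dhx58, with 0.0376. Isg15, with an IDR of 0.0101, and Dhx58 had no promoter region once peaks were limited to an IDR of 0.01 or below, and the other 33 genes did.

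The 2′-5′-oligoadenylate synthetase (OAS) family had a promoter region at 3 of its 6 members, which is close to the 49.1% over all protein-coding genes. The active synthetases of the family sense double-stranded RNA and make the messenger that activates RNase L, and Oasl1 and Oasl2 belong to the OAS-like branch. Oas1b, a gene known in mice for resistance to flaviviruses, had a region of 825 bp at chromosome 5, 120812201 to 120813025, that also lay within 1000 bp of a TSS of its neighbour Oas1c. Its close relative Oas1a had none in either list, and its promoter, shown above, holds 2 overlapping ISRE matches. Oas2 likewise had none in either. Oas3 had a pseudoreplicated region at 120777564 to 120777819 whose signal was 4.45 and whose IDR was 0.0511, just outside the largest IDR in the thresholded list, 0.0501, and a thresholded intronic region 1758 bp downstream of a TSS with a signal of 12.9. The Oas3 site printed above lies in the weaker of those. Over the 179 kb from Oas2 to Oas1a there were 3 thresholded regions, and Oas1c was the only 1 of 8 protein-coding genes with a promoter region. Oasl2, on another part of chromosome 5, had a signal of 17.4, and Oasl1 had 15.9 with its summit at −1265 from the nearest TSS, so that only the edge of that region lies within 1000 bp.

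The IFIT genes, whose products bind viral RNA and block its translation, form a cluster on chromosome 19 in which all 6 protein-coding genes had a promoter region. Over all protein-coding genes the share was 49.1%, and the 6 are not independent, since Ifit1 and Ifit1bl2 share a region. Ifit2 had a signal of 16.3 and Ifit3 had 10.3, both below Ifit1. The Ifit1 summit lay closer to an annotated TSS of Ifit1bl2, and by the rule of the nearest TSS the region counts for that gene in the totals per gene. The MX GTPases trap viral nucleocapsids. Mx1 had a region of 858 bp with a signal of 13.4, and Mx2 had 1 of 1675 bp with 12.6, the widest of the 35. Near-identical sequence, defined as 95% identity over 200 bp or more elsewhere on the assembled chromosomes, was found for the promoter of 6 of the 40 genes, namely Ifit3, Mx2, Igtp, Irgm2, Ifi203 and Ifi204. The windows searched for Igtp and Irgm2 overlap, as said above. Ifit3 had 1 copy aligned over 1009 bp at 96.0%, and Ifi204 had 1 over 1001 bp at 97.4%. How the alignment treated reads from such copies, not given in the sources used here, is unknown, so values at these 6 genes are uncertain. Oas1a and Oas2 had no such copy.

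The guanylate-binding proteins are interferon gamma-induced GTPases that coat the vacuoles of intracellular pathogens. All 5 members had a promoter region, where the share over all protein-coding genes was 49.1%. Their signals ran from 8.70 at Gbp5 to 14.7 at Gbp3, all below the median of other genes. Gbp5 had 3 separate promoter regions, with signals of 8.70, 8.04 and 4.36, and Gbp2 and Gbp3 had 2 each. The stronger Gbp2 region was 1436 bp wide and its strongest summit lay 728 bp downstream of a TSS. The chromosome 3 cluster from Gbp5 to Gbp2 spans 146 kb and held 12 thresholded regions, and Gbp2b was its only protein-coding gene without a promoter region. At Gbp3 the 2 overlapping ISRE matches printed above fall between its regions, which end at 142559883 and start again at 142560099. Gbp4 lies on chromosome 5, and its region, with a signal of 11.45, also lay within 1000 bp of TSSs of Gbp8 and Gbp9.

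The immunity-related GTPases Igtp, Irgm1 and Irgm2 control vacuoles of Toxoplasma and mycobacteria in mice. Igtp and Irgm2 shared a region at chromosome 11, 58199220 to 58199939 (signal 16.5), because an Irgm2 transcript starts beside Igtp, and Irgm2 had a second of its own at 58214843 to 58215088 (signal 8.41). Irgm1 had 10.1.

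Among the nucleic acid sensors, Adar, the enzyme that edits adenosine to inosine in double-stranded RNA, had regions at 2 separate promoters. The downstream one, at chromosome 3, 89730495 to 89730900, was the stronger (signal 19.5), and the upstream one, at 89714286 to 89714711, had 12.9. Ifih1, which encodes the long double-stranded RNA sensor MDA5, had 14.4 with its summit 10 bp from a TSS. Ddx58, which encodes RIG-I, the sensor of RNA with a 5′ triphosphate, had 11.7 at a summit 545 bp downstream of a TSS and 6.70 in a second region 24 bp from a TSS. Dhx58, which encodes their regulator LGP2, had a single thresholded region, 659 bp downstream of a TSS, while a region 3 bp from a TSS (summit at −3) with a signal of 10.95 was in the pseudoreplicated list alone. Ifi203 had 14.04 and Ifi204, of the same IFI200 family, had a pseudoreplicated promoter region only (signal 3.71, IDR 0.388). Ifi44, an interferon-induced gene outside these families, had a pseudoreplicated promoter region only as well (signal 6.07, IDR 0.388).

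In the ISG15 system, Usp18, the protease that removes ISG15 and dampens receptor signalling, had 16.4 at its 5′ promoter and 14.3 at a downstream TSS, and Trim25, the ubiquitin ligase that acts on RIG-I, had 19.99. Dtx3l and Parp9, whose proteins work as a complex, are divergent neighbours and shared both of their promoter regions, with signals of 13.2 and 13.0. Of the remaining effectors, Ifi27l2a had 19.4, Xaf1 18.1, Ifi35 14.5 and Isg20, an exonuclease of single-stranded RNA, 13.2. Samhd1, which hydrolyses the nucleotides that reverse transcription needs, had 8.07.

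Matches to the ISRE were present in 24 of the 44 distinct promoter regions of these genes (54.5%). The share over all promoter regions was 8.61%, and over other promoter regions of the same 10 width classes it was 7.56%. By gene, 25 of the 35 members with a promoter region had a match in it, and 12 had more than 1. Among protein-coding genes with a promoter region, 2 or more matches were found for 11 of 33 members (33.3%), against 142 of 10741 other genes (1.32%). Zbp1 had 4 and Isg15 had 3. In the regions of Oasl1, Ifit2, Mx1, Gbp4, Dhx58, Adar, Trim25, Samhd1, Xaf1 and Ifi35 these letters were not found, which says nothing of the factors bound there. A match within 1000 bp of a TSS, whatever the peaks, was present for 32 of 38 protein-coding members, against a share of 40.9% over all protein-coding genes. Of those 32, 28 (87.5%) had a promoter region, and of 8947 other genes with such a match 55.2% did. Of the 6 members without a match 5 (83.3%) had one, and of 12953 other genes without a match 44.8% did. The shares among members with and without a match were near each other, but only 6 members lacked a match, too few to draw a conclusion from.

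Most of the matches lay close to the summits. In the 24 member regions the nearest match was a median of 30.5 bp from the strongest summit, and 10 of them (41.7%) had it within 20 bp. In 956 other promoter regions with a match the median was 190.5 bp, and 8.996% had it within 20 bp. The groups were not matched on the number of matches or on width. Members more often had 2 or more matches, and their regions were narrower, and both tend to shorten the distance to the nearest match. At Ifit1 the matches lay 2 and 17 bp from the summit, at Ifit3 1 and 35 bp, at Irgm1 3 and 9 bp, and in the region shared by Dtx3l and Parp9 the match lay at the summit itself. The nearest match lay within 100 bp in 21 of the 24 regions (87.5%), against 31.7% of the other regions. It lay farther away at Gbp2 (755 bp), Ifi27l2a (247 bp) and Parp14 (233 bp). Of the 38 distinct matches, 33 lay upstream of the nearest TSS of the gene and 31 of these within 250 bp of it. Their strand showed no common direction, with 18 on the strand of the gene and 20 on the other.

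**Figure D2:**
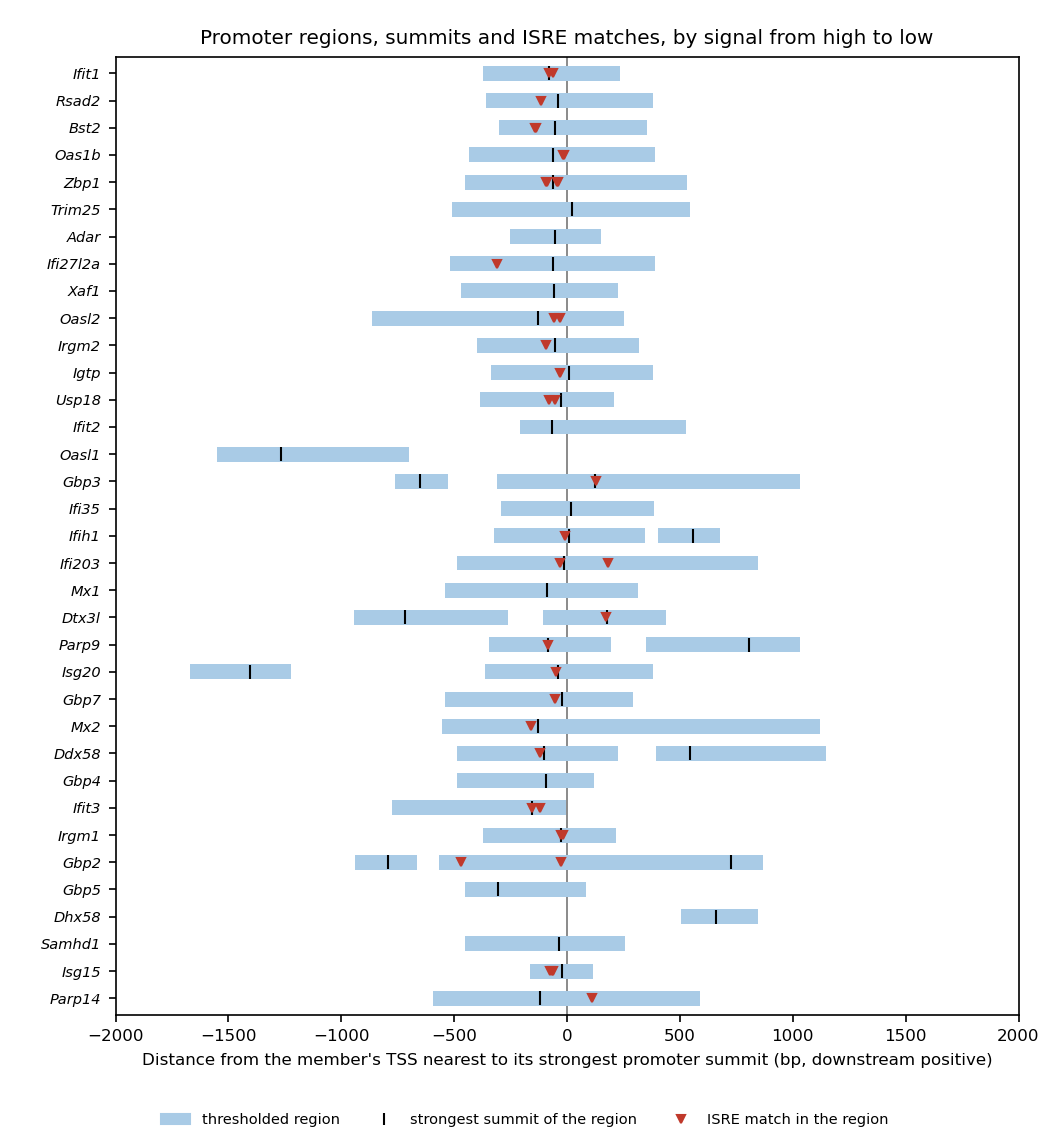
Thresholded promoter regions (bars), the strongest summit of each region (black ticks) and ISRE matches (red triangles) at the 35 genes with a promoter region, in bp from the member's TSS nearest to its strongest summit, ordered by signal from high at the top. Most triangles lie within 250 bp upstream of the TSS and beside a summit, and regions more than 2000 bp away, as at alternative promoters of Gbp5, Usp18, Adar and Irgm2, are not drawn.

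Other motifs differed less. The GAS element, searched as TTCNNNGAA, was found in 13 of 44 member regions (29.5%), against 14.8% of other regions of like width and a share of 16.4% over all. The same letters fit sites of several STAT factors. The joint site of an ETS and an IRF factor, GGAA, any 2 bases and GAAA, was found in 9 (20.5%), against 5.85% and a share of 6.59% over all. A loose AP-1 form, TGANTCA with any base at N, was found in 15 (34.1%), against 12.2% and 13.4% over all. RUNX, TGTGGT, was found in 19 (43.2%), against 30.6% and 33.2% over all. Motifs of constitutive promoters were less frequent. The ETS site CCGGAAG was found in 5 member regions (11.4%), against 25.2% of regions of like width and 29.6% over all, and the GC box GGGCGG in 24 (54.5%), against 70.0% and 77.6% over all. The loose NF-kB form, GGG and CC with any 5 bases between, was found in 32 (72.7%), against 81.5% and 87.3% over all, and the joint AP-1 and IRF site, TGANTCA, any 4 bases and GAAA, in none of the 44, with 0.193% over all. All 9 motifs were searched on both strands over the whole region, and overlapping matches count separately. The other regions were matched on width and not on CpG content, which was lower at the members' gene starts, as given below. The ETS form and the GC box each contain a CpG. How far base composition accounts for any of these differences was not tested.

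**Figure D3:**
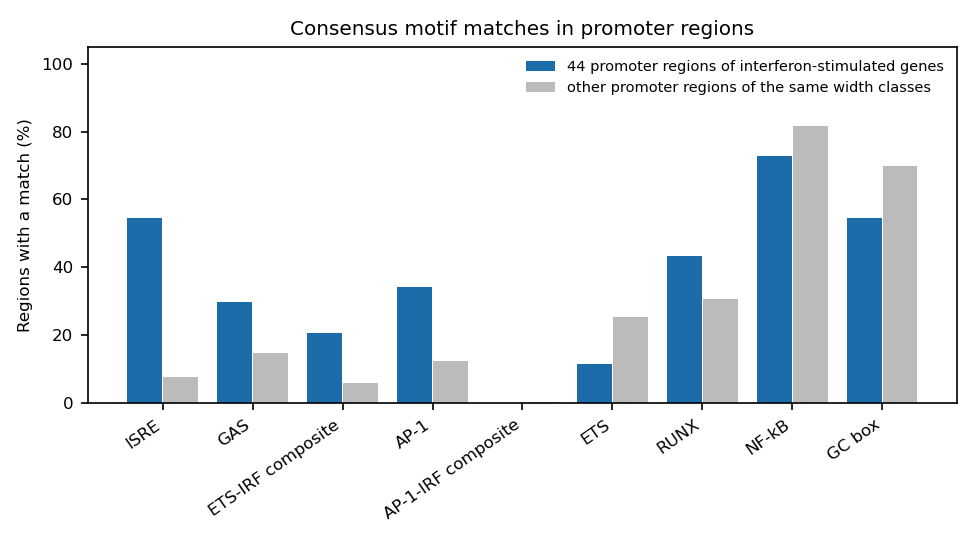
Share of promoter regions with a match to each of 9 consensus motifs, for the 44 regions of interferon-stimulated genes (blue, left of each pair) and for other promoter regions in the same width classes (grey). The ISRE bars stand at 54.5% and 7.56%, while the ETS and GC box bars are lower in the interferon-stimulated genes.

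The gene starts were poor in CpG dinucleotides. The observed over expected CpG ratio within 500 bp of the 5′ end had a median of 0.254 in the 38 protein-coding members and 0.553 in other genes. Among other genes the median was 0.736 with a promoter region and 0.252 without one. The members' ratio thus was near that of genes without a promoter region, although 33 of the 38 were accessible. All genes were put in 10 equal classes by this ratio. In the lower 5, where the share with a promoter region was 21.3%, 25 of 30 members had one (83.3%), against 2306 of 10939 other genes (21.1%). In the lowest class all 6 members did, against 5.94% of other genes, and they were Gbp4 (0.0547), Mx1 (0.0570), Ifi27l2a (0.0687), Ifi203 (0.0747), Ifit3 (0.0820) and Gbp2 (0.1104). At the other end were Trim25 (0.722), Adar (0.709) and Samhd1 (0.697). None of these had an ISRE match in its promoter regions, whereas Usp18, next by ratio (0.609), did. In the lowest class Gbp4 and Mx1 had no match either, and Ifi27l2a, Ifi203, Ifit3 and Gbp2 did. When the members were set beside other genes of the same CpG classes, a matching chosen after the data were seen, 29.9% of those had a promoter region.

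**Figure D4:**
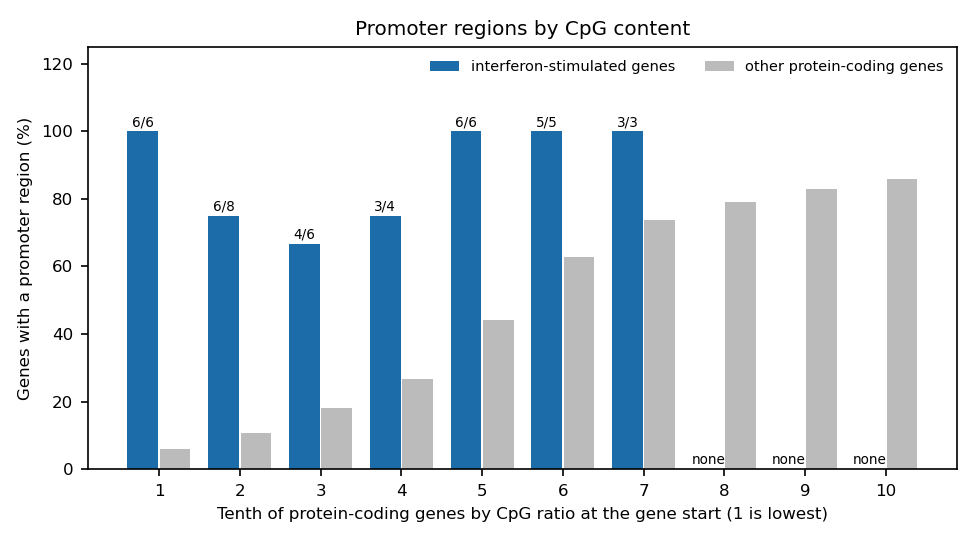
Share of genes with a promoter region in 10 classes of all protein-coding genes by CpG ratio at the gene start, for interferon-stimulated genes (blue, with counts above the bars) and for other genes (grey). The grey bars climb from 5.94% in the lowest class to 86.0% in the highest, while the lowest blue bar stands at 4 of 6 members, and classes 8 to 10 hold no member.

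Most members had few regions in all. By the nearest protein-coding TSS within 100 kb of the strongest summit, 72 regions were assigned to 35 of the 38 protein-coding members, where the share over all protein-coding genes was 53.1%. The mean was 1.89 regions per member, against 0.883 for genes in the same class of territory size and 1.13 for all other genes. Members sit in small territories, with a mean of 37.96 kb against 76.7 kb. Of the 38, 16 had 1 region, 9 had 2, 6 had 3 and 4 had more, and Ifi44, Oas1a and Oas2 had none. Ifih1 had the most with 6, followed by Samhd1 and Gbp5 with 5 each and Gbp3 with 4. No region can be assigned to Oas1b or Mx2 by this rule.

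**Figure D5:**
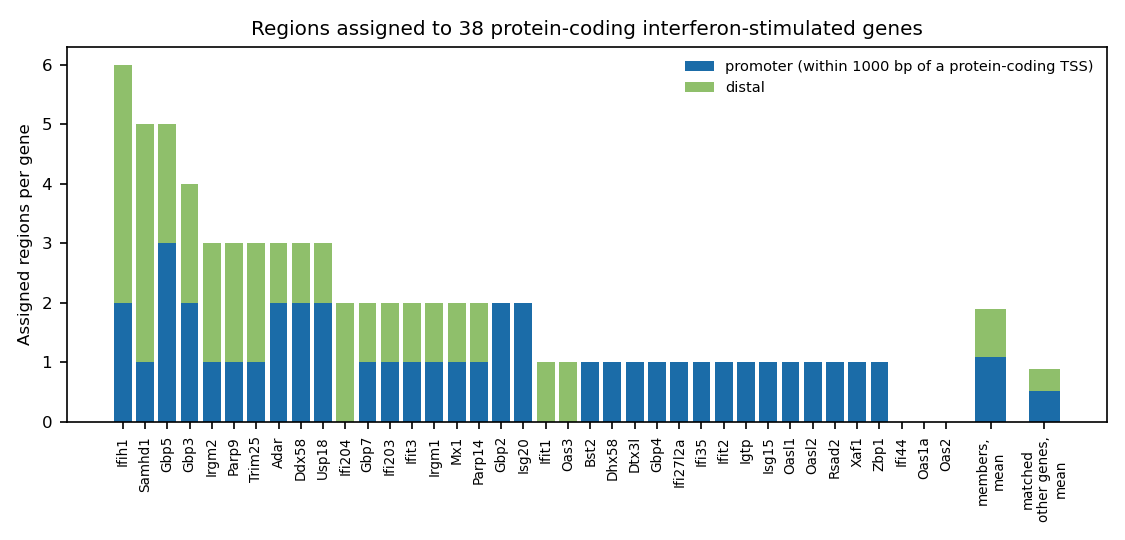
Regions assigned to each protein-coding member, split into those within 1000 bp of a protein-coding TSS (blue) and distal ones (green), with the mean over the 38 members and the mean over other genes of the same territory classes at the right. Ifih1 has 6 and the mean bars reach 1.89 and 0.883.

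Distal regions, which lie over 1000 bp from every protein-coding TSS, made up 31 of the 72, and 19 of the 38 members had at least 1, where the share over all protein-coding genes was 27.6%. The mean was 0.816 per member, against 0.376 in matched genes and 0.609 in all other genes. The 31 had a median signal of 11.1 (range 4.89 to 24.97), against 12.6 for 13341 distal regions of other genes. Their summits lay 1758 to 42510 bp from the TSS, and 21 of them within 10 kb. By the position of the summit 16 were intergenic, 12 intronic, 2 in untranslated sequence and 1 in a coding exon. Ifih1 and Samhd1 had 4 each. The strongest had its summit at −6573 from a TSS of Ifi203 (chromosome 1, 173949038 to 173949588, signal 24.97), above the 14.04 of that gene's promoter. Usp18 had a region of signal 20.1 at chromosome 6, 121272303 to 121272877, with 1 ISRE match, and Parp9 had 1 of signal 19.3 with 4 summits at chromosome 16, 35918345 to 35919655, which held 1 ISRE and 2 GAS matches. Ifi204, without a thresholded promoter region, had 2 distal regions with signals of 19.9 and 18.7.

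Motif shares lay nearer to the background in distal regions than in promoter regions. The ISRE was found in 6 of 31 (19.4%), with 11.7% over all distal regions assigned to genes, GAS in 7 (22.6%), with 17.3% over all, and AP-1 in 5 (16.1%), with 23.7% over all.

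The rest of the pathway was described from 74 further genes in 6 lists, to be read beside the shares of 49.1% (thresholded) and 55.7% (pseudoreplicated) of all protein-coding genes with a promoter region. Of the receptors and their kinases, 6 of 7 had a promoter region, and these genes held 45 regions with a median of 7, led by Jak1 with 15, and with 8 each by Ifnar1, a subunit of the type I interferon receptor, and Jak2. Ifngr2, a subunit of the interferon gamma receptor, had a promoter region among the pseudoreplicated ones alone. All 8 transcription factors had one. The signal was 28.2 at Stat2 and 17.2 at Irf9, and Irf2 (8 regions) and Irf8 (6) had the most regions. All 4 feedback inhibitors had one, led by Socs1 with 8 regions. Of the sensors and adaptors that induce interferon, 7 of 10 had one, led by Ikbke (4 regions) and Tmem173, which encodes STING (3). The endosomal receptors Tlr3 and Tlr7 had no assigned thresholded region, against 1 and 4 pseudoreplicated ones, and Tlr9 had none in either list. Of 3 interferon ligands only Ifng had a promoter region, with 10 regions in all, and Ifnb1 and Ifna4 had no thresholded region.

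Of 42 further interferon-stimulated genes outside the 40, 31 had a thresholded promoter region and 37 a pseudoreplicated one, beside the same shares of 49.1% and 55.7% over all protein-coding genes. Iigp1, an immunity-related GTPase, Ly6e and Parp11 had 5 regions each. Ifitm1 and Ifitm2, membrane proteins that block viral entry, had no promoter or assigned region in the thresholded list, and neither did Oas1g, Ifi205, Ifi207 and Parp12. The strongest promoter regions in this list were those of Trim21 (signal 28.6) and Trim30a (25.1). Some of these genes share a region with a member, as Oas1c does with Oas1b, Mndal with Ifi203, and Gbp8 and Gbp9 with Gbp4.

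As a check of the label, 5 of 6 markers of regulatory and other T cells had a promoter region, with 32 regions in all, and Cd4 did not. With 49.1% of all protein-coding genes having a promoter region, counts over so few markers are a weak check. None of 3 myeloid markers (Cd14, Csf1r and Lyz2) had any region. Of 3 B cell markers Pax5 alone had a promoter region, and of 3 NK cell markers none did, although those 3 genes had 9 assigned regions.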

How the data were processed

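ATAC-seq was deposited as 3 peak lists on mm10 for 2 libraries of activated regulatory T cells, which per the README of each library derive from 1 alignment. The aligner, the peak caller, their versions and any shift of reads for the transposase, not given in the sources used here, could not be checked, and the depth is unknown. The deposited signal value of a peak is the caller's enrichment over an unstated background, and the deposited −log10 columns hold p, q and IDR. The deposited score runs to 1000. All are the authors' values per peak, used within a list. Rows that overlap by 1 bp or more were merged, and a region took the summit of its strongest row. TSSs were those of all transcripts in GENCODE M21 on chromosomes 1 to 19, X and Y. Territory counted bases within 100 kb of a TSS, and matching gave each member the mean of all other genes in its class of territory size (10 classes). The members, gene lists and motifs were chosen with earlier results of these data known. All 40 members are named, and of each further list the 2 genes with most regions and up to 2 with none, others after their values were seen. The design holds 1 group of pooled libraries, so no statistical test was made. Assignment, motif search and matching were tested on simulated data. Analyses used Python 3.11.15, numpy 2.4.6, pandas 2.3.3, scipy 1.17.1 and blastn 2.17.0 on GRCm38.p6 sequence.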

Additional observations from a re-analysis of the deposited data

How the results depend on the processing

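No paired analysis was possible because both libraries belong to 1 group and no list gives a value per library, and leaving out a replicate was not possible for the same reason. The 8 results were recomputed under 37 alternatives in all. None reversed, and 32 stayed within the range set for them: within 1.5 times the main value or, for the difference in promoter share between members and matched genes, within the members' Wilson interval less the matched share of the thresholded list. The number of members with a promoter region ran between 33 and 38, with Dhx58 lost with a promoter window of 500 bp, with 1 TSS per gene and at an IDR of 0.01 or below. The other 5 moved. In the pseudoreplicated list the regions assigned to members came to 129, their distal regions to 74 and the mean difference from matched genes to 1.85, against 72, 31 and 1.01 in the thresholded list. Unmerged peaks gave 127. Matching on the CpG ratio in place of territory, added after the data were seen, widened the difference in promoter share to 56.9 percentage points, against 36.6. With depth unknown, a region absent from a list shows only that no peak was called.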

Other observations

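Outside the 40 genes, 18 of 10741 protein-coding genes with a promoter region (0.168%) had 3 or more ISRE matches in it. Among protein-coding members 2 of 33 (6.06%) did. The genes named here were picked after their values were seen. Rtp4, Mndal and Iigp1, with 4, 4 and 3 matches, are further interferon-stimulated genes of the lists above. Ifi27 had 3 matches and a signal of 27.4, and H2-T24, a class I-like gene, had 3 and a signal of 11.7. The highest count was 13 at 1110038F14Rik, in 1 region with a signal of 10.1. Sh3bp2 and Olfr56 had 4 each.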
